A study of Mus musculus with 8 samples.

Results

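The *Brg1*-reexpressed Treg library of inflamed rKO1 mice was compared with the 2 *Brg1*-sufficient Treg libraries from mice without inflammation, WT and mosaic. These 3 libraries are 3 of the 8 in the series and 3 of the 6 of total Treg cells. They were chosen by their sample titles. Of 53465 gene identifiers, 12498 genes outside chromosomes X and Y reached an FPKM of 1 or more in any of the 3 libraries and were compared. FPKM is the number of sequenced fragments per kilobase of exon, scaled to the depth of the library, so that levels can be set side by side between genes.

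Treg cells are CD4 T cells that carry the transcription factor FOXP3 and restrain other immune cells. On activation they leave a resting state marked by *Tcf7*, *Ccr7* and *Bach2*, enter the cell cycle, and acquire effector molecules, receptors for inflamed tissue and regulators such as BLIMP-1 (*Prdm1*). BRG1, encoded by *Smarca4*, is the ATPase of the BAF complex, which moves nucleosomes and opens chromatin.

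In rKO1 mice, *Brg1* was removed from Treg cells by a Cre recombinase under *Foxp3* control and could be restored by tamoxifen (TAM). The ΔR allele holds a gene trap with GFP, and TAM activates a FLP recombinase (R26 CAG-FlpoER, present in every group here) that cuts the trap out. Cells that had regained *Brg1* were therefore GFP−, and cells that had not were GFP+. The question set by this comparison is how far *Brg1*-restored Treg cells in an inflamed host stood from *Brg1*-sufficient Treg cells of mice without inflammation.

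All mice were labelled C57BL/6 and were 3 to 4 weeks old (the ΔR allele was made on a mixed background and had fewer backcrosses than the other alleles). The methods of the paper give the sort of Treg cells from spleen and lymph nodes as CD4+CD25+YFP+. The mosaic *Brg1*-sufficient cells are described in the paper as YFP−, so this control differed from the other libraries in its YFP gate. The WT library is from BrgF/+ Foxp3 YFP-Cre/+ mice. The mosaic *Brg1*-sufficient library is labelled BrgF/ΔR Foxp3+/+ and holds the Treg cells without Cre activity of females that carry YFP-Cre on 1 of their X chromosomes, where random X inactivation leaves both kinds of Treg cell. The *Brg1*-reexpressed library is labelled BrgF/+ Foxp3 YFP-Cre/YFP-Cre and was taken on day 7 after TAM. The other total Treg libraries, given beside some values, are the *Brg1*-deleted cells of the mosaic females (BrgF/ΔR, YFP-Cre), of untreated rKO1 mice, and of TAM-treated rKO1 mice (GFP+, both BrgF/deltaR, YFP-Cre/YFP-Cre). Within the comparison, TAM, inflammation and earlier loss of *Brg1* apply to the reexpressed library alone and cannot be told apart. Each condition is 1 library, so no difference has a replicate check and none was tested, and rose, fell, higher and lower are used of genes at least 2-fold from both controls unless another ratio is given. Intervals are exact 95% intervals of the ratio of reads and cover counting error only.

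The 6 total Treg libraries held between 16290381 and 24049316 recovered fragments on genes. *Smarca4* stood at 14.8 FPKM in WT, 12.1 in the mosaic *Brg1*-sufficient and 9.52 in the reexpressed library, and at 7.44, 7.34 and 6.13 in the 3 *Brg1*-deleted libraries in the order above. The reexpressed value lay between the sufficient and the deleted ones. These values count all exons, including those upstream of the trap, and do not measure full-length transcript alone. The X-linked *Foxp3* was at 20.01 FPKM in WT, 137 in the mosaic and 29.1 in the reexpressed library. The 4 Y-linked genes summed to 17.9 FPKM in the reexpressed library and to 0 in both controls, while *Xist*, which is expressed from the inactive X of females, was at 2.69, 3.21 and 7.77 FPKM in the reexpressed, WT and mosaic libraries. The reexpressed library thus held RNA of both kinds although its label gives 2 YFP-Cre alleles of an X-linked gene, and sex cannot be told apart from the condition.

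The defining T cell genes were abundant in all 3 libraries, with *Trac* at 1574, 1480 and 1944 FPKM and *Cd4* at 41.3, 64.3 and 38.7 in WT, mosaic and reexpressed cells. *Cd3e* was the exception among 9 CD4 T cell markers, at 99.7, 168 and 29.0 FPKM. Summed B cell markers were lower in the reexpressed library (20.3 FPKM against 56.9 and 33.7, with *Ms4a1* and *Pax5* below 1 in all 3), as were 6 gamma-delta T cell genes (4.50 against 81.2 and 31.1), of which *Trdv4* alone was higher. Myeloid markers did not move together. Their sum was 96.1 FPKM against 445 and 158 and followed *Lyz2* (20.4 against 313 and 87.2), 2 of 10 were lower (*Lyz2* and *Spi1*) and 2 higher (*S100a8* and *S100a9*), and 6 of the 10 stood above mosaic. Summed plasma cell genes were higher (982 against 366 and 388), carried mainly by *Ighm* (697 FPKM) and *Igkc* (262), with *Sdc1* at 0. CD8 T and NK cell markers summed to 14.6 FPKM against 15.2 and 23.2, carried mainly by *Cd8b1* (8.03 FPKM in reexpressed and 12.1 in WT cells), while *Cd8a* was below 1 in all 3. In bulk RNA, fewer cells of a type and less RNA per cell cannot be told apart, and the part of these genes in other results was not tested.

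In the reexpressed library, 948 of the 12498 genes (7.59%) were at least 2-fold above both controls and 693 (5.54%) at least 2-fold below both. For scale, 1789 genes (14.3%) differed at least 2-fold between WT and mosaic themselves. Of the 948 genes, 338 reached an FPKM of 1 only through the reexpressed library, as did 594 of all compared genes. In such genes the reexpressed value was bound to lie above both controls, though not by 2-fold. In 799 of the 948 and 658 of the 693, the smaller of the changes was greater than the difference between the controls. This was bound to hold for the 685 higher and 582 lower genes whose controls lay within 2-fold of each other. The change from both controls was at least 4-fold for 212 higher and 201 lower genes and at least 8-fold for 35 and 77. Compared with 1 control alone, 1380 genes (11%) were higher and 1245 (9.96%) lower than in WT, and 1720 (13.8%) higher and 1345 (10.8%) lower than in mosaic cells. Both comparisons use the same reexpressed library. The median log2 ratio over all genes was −0.016 over WT and 0.026 over mosaic.

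**Figure D1:**
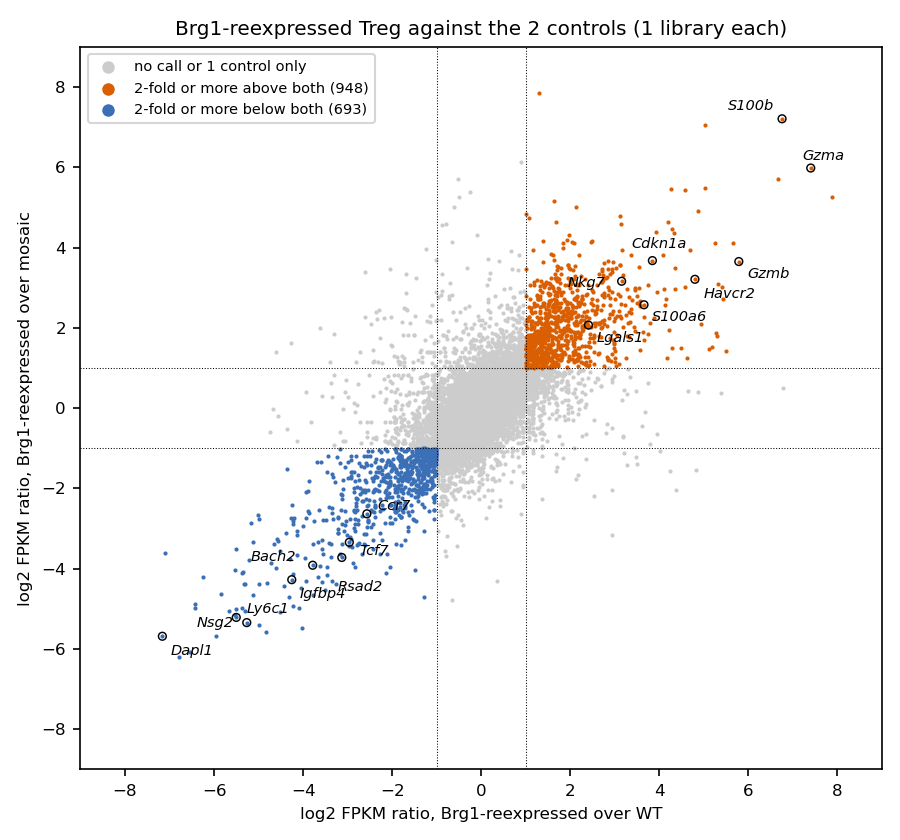
Each point is 1 of the 12498 compared genes, with the log2 FPKM ratio of the *Brg1*-reexpressed library over WT on the horizontal axis and over the mosaic *Brg1*-sufficient library on the vertical axis; dotted lines mark 2-fold. The 948 genes above both controls and the 693 below both are coloured, with *Gzma*, *Gzmb* and *S100b* far out among the first and *Dapl1*, *Nsg2* and *Ly6c1* among the second.

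By the smaller of the changes, the 12 protein-coding genes that rose most among those with an FPKM of 10 or more began with *S100b*, *Gzma*, *Ermn*, *Retnla*, *Ccl24*, *Cdkn1a* and *Gzmb*. *Gzma*, for the serine protease granzyme A (chromosome 13, 113093825–113100981), was at 3.08 FPKM in WT, 8.21 in mosaic and 520 in reexpressed cells, 169-fold (127–230) and 63.2-fold (54.4–74.0) higher. *Gzmb*, for granzyme B (chromosome 14, 56258838–56262260), was at 33.8, 148 and 1865 FPKM, 55.1-fold (51.2–59.4) and 12.6-fold (12.18–12.97) higher. *S100b*, for an S100 calcium-binding protein, had 0 reads in WT, 1 in mosaic and 337 in reexpressed cells, at least 108.04-fold above WT. For both granzymes the reexpressed value was also above every *Brg1*-deleted library, of which the highest were the GFP+ library for *Gzma* (38.1 FPKM) and the untreated rKO1 library for *Gzmb* (730.5).

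*Cdkn1a*, for the cell cycle inhibitor p21, was at 6.31 and 7.09 FPKM in the controls and at 90.6 in the reexpressed library, 14.4-fold (13.01–15.9) and 12.8-fold (11.8–13.9) higher. *Havcr2*, for the inhibitory receptor TIM-3, was at 0.387, 1.17 and 10.8 FPKM, and *Fut7*, for the fucosyltransferase that makes selectin ligands, at 5.20, 3.02 and 46.7. Both stood highest in the reexpressed library of all 6. *Nkg7*, for a granule membrane protein, was at 125, 124 and 1112 FPKM, yet at 1249 in the untreated rKO1 library, where *Brg1* was deleted. *Ermn*, *Retnla* and *Ccl24* were also highest in the untreated rKO1 library, with 21.3, 10.8 and 14.8 FPKM in the reexpressed library, under 1 in both controls, and 32.6, 30.9 and 31.9 in the untreated rKO1 library. In the GFP+ library they were at 11.95, 17.7 and 27.4, above the reexpressed value for *Retnla* and *Ccl24*. *Retnla* and *Ccl24* are best known from alternatively activated macrophages. *Tspan17*, for a tetraspanin, rose from 1.63 and 1.65 to 19.0 FPKM, and *Gzmf* from 0.287 and 1.52 to 12.2, although 16.4% of its exon bases overlap another gene and granzyme genes share sequence.

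Of the 12 genes that fell most, chosen the same way, *Dapl1*, *Nsg2*, *Igfbp4* and *Tcf7* belong to the list of naive and resting T cell genes. *Dapl1* had 413 reads in WT, 204 in mosaic and 0 in reexpressed cells, at least 143-fold and at least 51.6-fold lower. *Nsg2* was at 12.3, 13.04 and 0.320 FPKM, 38.5-fold (25.0–62.5) and 40.7-fold (26.5–66.1) lower. *Ly6c1*, for a surface protein of the Ly6 family, was at 95.9, 78.8 and 2.12 FPKM, and *Igfbp4*, for an insulin-like growth factor binding protein, at 70.7, 71.8 and 3.70. The reexpressed library was the lowest of all 6 for these genes. *Igf2r*, the receptor that clears insulin-like growth factor 2, fell from 15.5 and 18.7 to 1.77 FPKM, *Treml2* from 11.5 and 15.1 to 0.576, *Tbc1d4*, a regulator of glucose transporter traffic, from 19.9 and 36.6 to 1.44, *Evl*, an actin regulator, from 60.9 and 48.4 to 4.78, and *Gabrr2* from 12.6 and 10.8 to 0.812. *Hba-a2* (20.5, 27.7 and 1.23 FPKM) has a near-identical copy, *Hba-a1*, which was at 554, 155 and 432, so that the split of reads between them is uncertain.

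Gene lists differed in their share of called members. Of the naive and resting T cell genes 13 of 21 were lower. The members higher than both controls were 49 of 50 for mitosis, 13 of 18 for granule and suppressive effector genes, 11 of 17 for S100, annexin and galectin genes, 22 of 43 for DNA replication and 26 of 51 for histones. Ribosomal protein, BAF and respiratory chain genes were mostly within 2-fold of at least 1 control. Each list is described below by how many of its compared members were called, against 7.59% higher and 5.54% lower over all genes. Some genes, such as *Ccr7*, *Bcl2*, *Il6ra* and *Lgals3*, belong to more than 1 list and count in each, so the lists are not separate results.

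**Figure D2:**
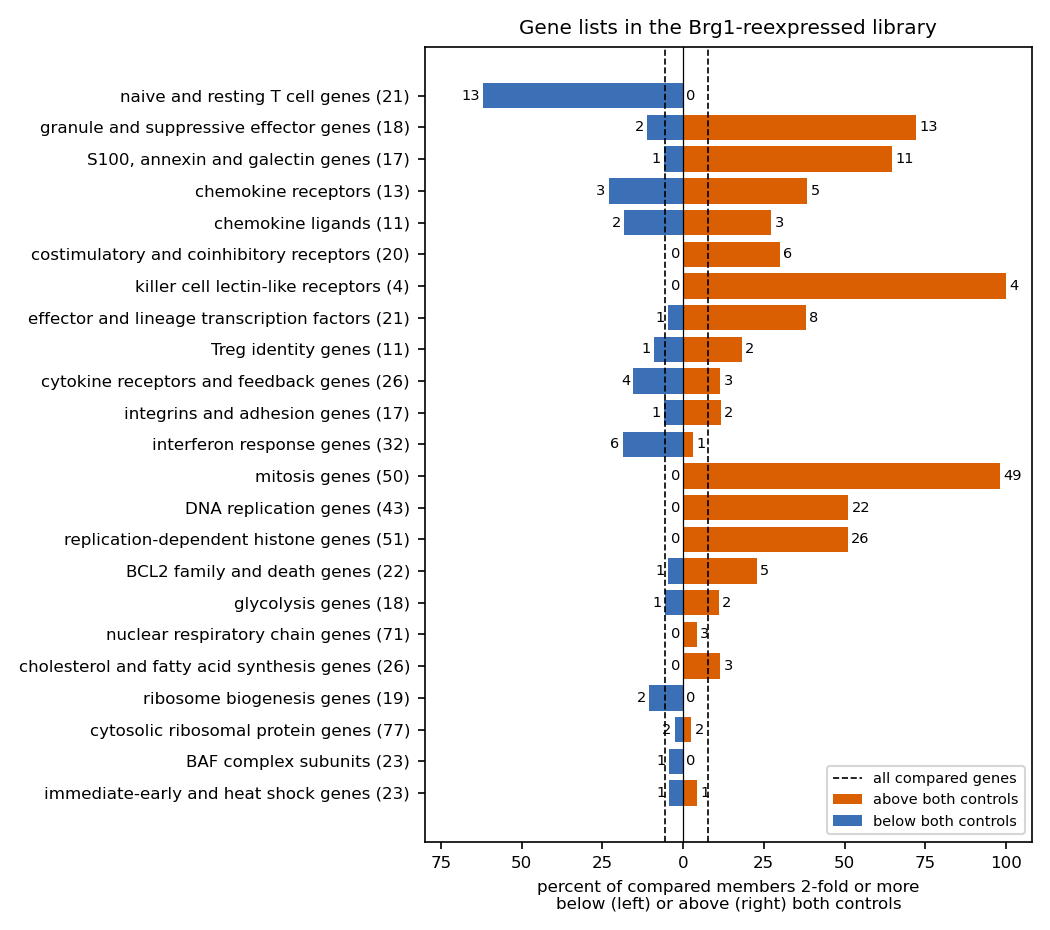
Bars give, for each gene list, the percent of compared members (number in brackets) at least 2-fold above both controls to the right and at least 2-fold below both to the left, with the counts at the bar ends and dashed lines at the shares over all compared genes, 7.59% and 5.54%. Of the mitosis genes 49 of 50 lie to the right and of the resting T cell genes 13 of 21 to the left.

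Among 23 granule and suppressive effector genes, 18 were compared, of which 13 were higher than both controls and 2 lower. The median log2 ratio was 2.03 over WT and 1.81 over mosaic. Besides *Gzma*, *Gzmb* and *Gzmf*, the lectin gene *Lgals3* was among the 4 that rose most, from 63.1 and 37.4 to 416 FPKM, 6.59-fold (6.27–6.93) and 11.1-fold (10.5–11.7). Of the cytokines through which Treg cells act, *Il10* was at 17.3 and 9.79 FPKM in the controls and at 56.5 in reexpressed cells, *Ebi3*, a subunit of IL-35, at 20.5, 23.5 and 62.0, and *Areg*, the tissue repair factor amphiregulin, at 5.09, 3.95 and 23.3. *Tgfb1*, for the suppressive cytokine TGF-β1, went the other way, at 10.3, 12.6 and 5.09 FPKM, 2.03-fold (1.80–2.29) and 2.47-fold (2.21–2.76) lower. So did *Nt5e*, for the adenosine-forming enzyme CD73, at 16.2, 13.4 and 5.82, whereas its partner enzyme *Entpd1* (CD39) stood at 4.22, 4.62 and 7.68, within 2-fold of each. *Gzmk* was 4.14-fold above WT but 1.295-fold above mosaic. The perforin gene *Prf1*, which forms the pores through which granzymes pass, was low in level, at 1.40, 2.58 and 5.96 FPKM. Scaled by TMM or by the median of ratios, 1 list member in place of 2 was lower, and *Tgfb1* was not called.

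The list of S100, annexin and galectin genes held 17 genes, a few of them of other families, and did not hold *S100b*. All 17 were compared, 11 were higher and 1 was lower, with median log2 ratios of 1.79 and 1.74. Several of these were among the most abundant transcripts. *Lgals1*, for galectin-1, was at 1057, 1337 and 5608 FPKM, *S100a10* at 1438, 1329 and 5123, *S100a11* at 726, 854 and 3773, and *S100a6* at 299, 632 and 3764. *S100a6* was thus 12.6-fold (12.3–12.9) above WT and 5.96-fold (5.86–6.05) above mosaic. *Anxa2*, the membrane-binding partner of S100A10, was at 46.5, 45.5 and 203 FPKM, and the reexpressed library was the highest of all 6 for 15 of the 17 genes. *Lgals9*, for galectin-9, was the exception, at 249, 190 and 80.6 FPKM. *S100a4*, at 6.88, 8.31 and 35.8 FPKM, has 51.7% of its exon bases in common with another gene, and its exact level is uncertain. Neighbouring S100 genes moved together. A run of 8 adjacent compared protein-coding genes on chromosome 3 (90511034–90695721), *S100a1*, *S100a13*, *S100a3*, *S100a2*, *S100a4*, *S100a6*, *S100a8* and *S100a9*, all stood at least 2-fold above both controls. *S100a8* and *S100a9* are neutrophil and monocyte genes and were low, at 6.57 and 8.86 FPKM, below the 16.6 and 19.2 of the GFP+ library.

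Chemokine receptors changed in both directions. Of 16, 13 were compared, 2 of them only through the reexpressed library, with 5 higher and 3 lower. *Ccr2*, which follows monocyte chemoattractants, was at 5.74, 8.47 and 35.9 FPKM, 6.25-fold (5.73–6.83) and 4.24-fold (3.97–4.53) higher, *Ccr1* at 0.279, 0.407 and 3.24, *Ccr10*, a receptor for skin and mucosal chemokines, at 8.85, 10.1 and 32.6, and *Cxcr6* at 43.0, 22.7 and 99.4. In the mosaic *Brg1*-deleted library *Ccr2* and *Ccr10* were at 0.261 and 0.244. The lower genes were *Ccr7*, which leads cells into lymph nodes, at 223, 234 and 37.6 FPKM, 5.93-fold (5.57–6.32) and 6.22-fold (5.85–6.61) lower, the follicle receptor *Cxcr5* at 2.04, 4.31 and 0.437, and *Ccr9*, a receptor for gut and thymus, at 2.78, 1.47 and 0.593. Relative to 1 control only, *Ccr8* was 4.05-fold and *Ccr4* 2.52-fold above WT, and *Cxcr4* 2.13-fold above mosaic. Among 11 chemokine ligands compared, *Ccl3* (4.90, 1.004 and 17.4 FPKM), *Ccl4* (26.9, 11.7 and 87.2) and *Ccl5* (33.6, 46.3 and 103), which attract T cells and monocytes, were higher, and *Ccl20* (16.8, 10.7 and 3.16) and *Ccl22* (1.25, 2.29 and 0.463) lower. The ligand list did not hold *Ccl24*, which was also higher than both controls, as given above.

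Among 20 costimulatory and coinhibitory receptors compared, 6 were higher and none was lower (1 was lower when libraries were scaled by TMM and 2 by total reads). *Klrg1*, a receptor of terminally differentiated lymphocytes, was at 33.3, 35.6 and 164 FPKM, 4.92-fold (4.54–5.34) and 4.61-fold (4.30–4.94) higher. *Icos*, a costimulator of effector Treg cells, was at 21.7, 40.1 and 125, and *Ctla4*, through which Treg cells strip B7 ligands from antigen-presenting cells, at 56.1, 51.5 and 212. *Tigit* (32.6, 101 and 235) and *Tnfrsf9* (53.4, 91.2 and 213) completed the 6 with *Havcr2*. All 6 were highest in the reexpressed library. *Tnfrsf1b* was 2.82-fold above WT and 1.41-fold above mosaic, *Tnfrsf8* 2.56-fold and 1.90-fold. *Cd83* was 2.97-fold below WT and 1.94-fold below mosaic, *Cd226* 3.40-fold and 1.84-fold, and *Lag3* 1.11-fold and 4.32-fold. *Pdcd1*, for PD-1, was at 36.0, 26.9 and 22.4 FPKM. Of 26 killer cell lectin-like receptors only 4 reached an FPKM of 1, 2 of them through the reexpressed library alone. All 4 were higher, among them *Klrb1f* at 1.40, 2.11 and 4.85 FPKM, and *Klrd1*, part of an NK cell receptor, at 0.771, 0.675 and 1.73.

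Of 21 effector and lineage transcription factors, 8 were higher and 1 was lower, with median log2 ratios of 0.97 and 0.90. *Prdm1*, the regulator of effector Treg cells, was at 1.56, 4.07 and 12.3 FPKM, 7.90-fold (6.59–9.54) and 3.03-fold (2.71–3.38) higher. *Nfil3* was at 13.6, 14.1 and 64.1, *Runx2* at 0.693, 1.78 and 5.50, and *Rora*, which is found in tissue Treg cells, at 5.04, 6.02 and 17.2. *Tbx21*, for the Th1 factor T-bet, rose from 2.22 and 3.50 to 9.24, close to its 8.22 in untreated rKO1 cells. *Gata3* (14.8, 21.1 and 19.8) and *Irf4* (3.95, 6.93 and 7.58), which direct other effector fates, were within 2-fold of both controls. *Id3*, an inhibitor of E proteins that resting Treg cells express, fell from 360 and 290 to 96.0 FPKM, 3.75-fold (3.59–3.91) and 3.02-fold (2.89–3.15), while its paralog *Id2* was at 91.8, 95.8 and 197.

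Most Treg identity genes were within 2-fold of at least 1 control, yet 8 of the 11 compared stood below both by any amount. The median log2 ratio was −0.46 over WT and −0.63 over mosaic. For 5 of the 11, the reexpressed library was the lowest of all 6. Of 11 compared, *Ctla4* and *Ikzf2*, the latter for the factor Helios (28.9, 37.1 and 78.4 FPKM), were higher, and *Gpr83*, a receptor of resting Treg cells, was lower (41.8, 65.1 and 6.28), 6.66-fold (6.06–7.33) and 10.4-fold (9.48–11.4). *Il2ra*, for the IL-2 receptor chain CD25 used in the sort, was at 52.9, 52.0 and 47.9 FPKM. *Nrp1* was at 10.1, 8.02 and 5.33, and *Ikzf4* at 16.3, 14.8 and 9.56. Among 26 cytokine receptor and feedback genes, 3 (11.5%) were higher, all of the IL-1 receptor family. These were *Il1r2*, a decoy for IL-1 (35.1, 16.9 and 88.1), and the IL-18 receptor subunits *Il18r1* (4.66, 4.34 and 12.4) and *Il18rap* (0.497, 1.08 and 2.87). The rise did not take in every member of that family. *Il1rl1* was compared and not called, and *Il1r1* was below the FPKM minimum, at 0.145, 0.793 and 0.319. The 4 lower genes were *Il6ra* (9.84, 7.69 and 3.42) and *Il6st* (5.87, 7.03 and 1.79), the subunits of the IL-6 receptor, *Ifngr2* of the interferon-γ receptor (21.9, 20.8 and 6.31) and *Tgfbr3* (0.775, 1.28 and 0.174). *Ifngr1*, the partner of *Ifngr2*, was at 81.0, 91.5 and 125 FPKM. Of 17 integrin and adhesion genes, *Fut7* and the collagen receptor subunit *Itga2* (0.443, 0.896 and 5.22) were higher and *Itga4*, used for entry into gut and brain, was lower (6.14, 6.09 and 2.56). *Itga2* passed the FPKM minimum only through the reexpressed library.

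Resting T cell genes fell, with *Dapl1* and *Ccr7* among them. Of 21 naive and resting T cell genes compared, 13 were lower than both controls, 9 of them at least 4-fold, and none was higher. The median log2 ratio was −1.89 over WT and −1.40 over mosaic. *Bach2*, a repressor that keeps Treg cells quiescent (chromosome 4), was at 5.09, 5.59 and 0.370 FPKM, 13.8-fold (10.5–18.3) and 15.1-fold (11.6–20.04) lower. *Tcf7*, for the stem-like T cell factor TCF-1, was at 83.9, 109 and 10.8, 7.80-fold (7.06–8.63) and 10.2-fold (9.24–11.2) lower. *Foxp1*, a quiescence factor, was at 15.9, 16.7 and 4.28. The *Brg1*-deleted libraries of the rKO1 mice were intermediate for these 3 genes, at 2.76 and 3.74 FPKM for *Bach2*, 55.2 and 76.7 for *Tcf7* and 8.23 and 9.94 for *Foxp1*, and the mosaic *Brg1*-deleted library was the highest of all 6 at 7.56, 123 and 20.7. The decrease did not take in every member. *S1pr1*, which guides exit from lymph nodes, was at 75.7, 80.8 and 65.5 FPKM, *Satb1* at 10.3, 12.1 and 10.5, and *Il7r*, the receptor for the survival cytokine IL-7, at 11.6, 24.8 and 37.8.

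**Figure D3:**
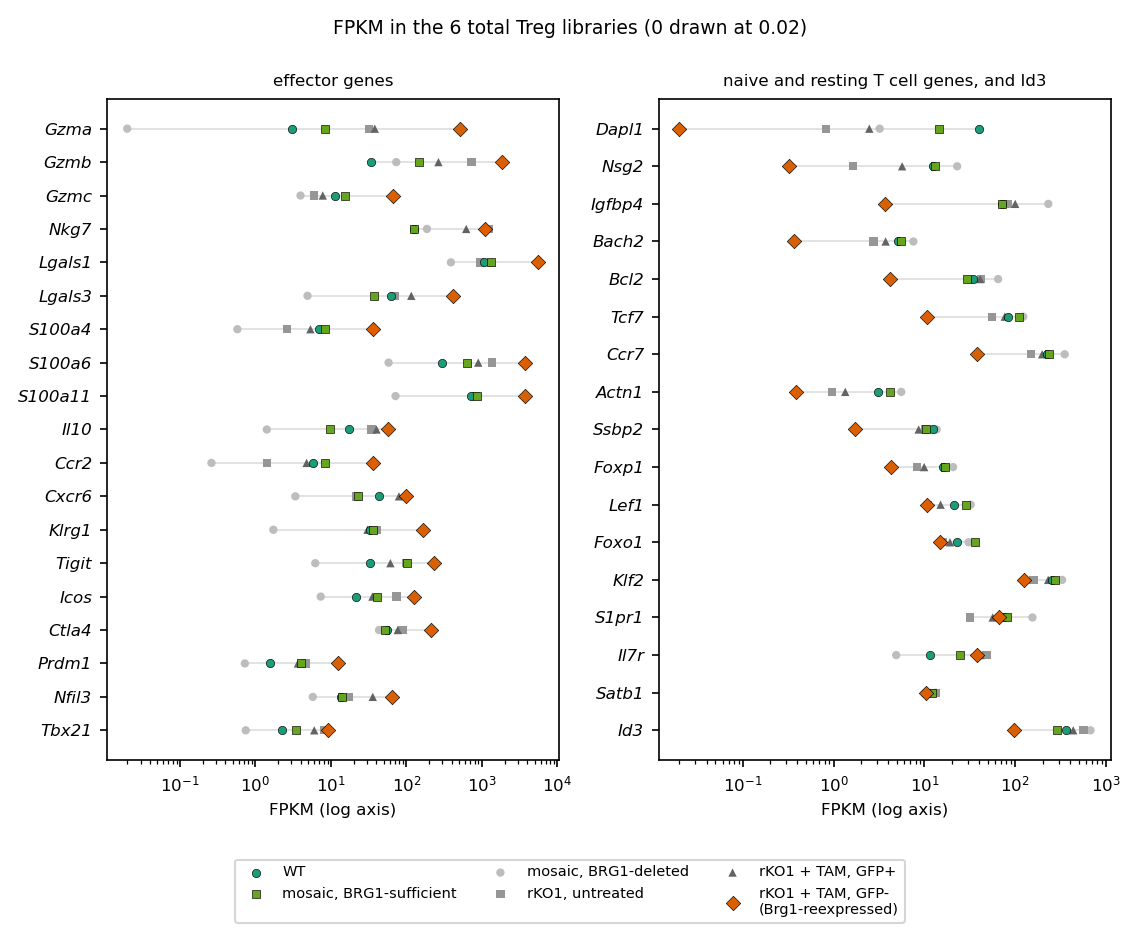
FPKM on a log axis in the 6 total Treg libraries, 1 marker per library, for selected effector genes (left) and for resting T cell genes with *Id3* (right). The *Brg1*-reexpressed library (orange) lies to the right of both controls (green) for all 19 genes on the left, second to the untreated rKO1 library for *Nkg7*, and to the left of both for *Dapl1* down to *Klf2* and for *Id3*, whereas *S1pr1*, *Il7r* and *Satb1* lie near or above the controls.

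Mitosis genes had the highest share of members called of any list of more than 4 genes described here. Of 50 compared, 49 were at least 2-fold above both controls and all 50 were highest in the reexpressed library of all 6, against 26.3% of all compared genes. The exception, *Kif23*, was 1.84-fold above WT and 3.95-fold above mosaic. Only 8 of the 50 reached an FPKM of 1 through the reexpressed library alone. The median FPKM of the list was 2.68 in WT, 1.702 in mosaic, 1.59 in mosaic *Brg1*-deleted, 2.48 in untreated rKO1, 3.73 in GFP+ and 8.95 in reexpressed cells, and its median log2 ratio was 1.69 over WT and 2.51 over mosaic. *Prc1*, which bundles the central spindle, was at 1.27, 0.730 and 5.66 FPKM, 4.47-fold (3.76–5.35) and 7.75-fold (6.40–9.45) higher. The next 3 passed the FPKM minimum only through the reexpressed library. *Sgo2a*, a guardian of centromere cohesion, was at 0.207, 0.213 and 1.16, *Ect2*, which triggers cell division, at 0.636, 0.401 and 3.38, and the spindle motor *Kif15* at 0.598, 0.619 and 3.06. *Ccnb2*, a mitotic cyclin, was more abundant, at 32.8, 24.9 and 132 FPKM.

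Of 43 DNA replication genes, 22 were higher and none was lower, with a median log2 ratio of 1.09 over WT and 1.38 over mosaic, so that many lay near the 2-fold line, and 42 were highest in the reexpressed library. *Rrm2*, a subunit of the enzyme that makes deoxyribonucleotides, was at 40.4, 14.1 and 132 FPKM, 3.27-fold (3.09–3.45) and 9.38-fold (8.71–10.1) higher. *Mcm10*, an origin firing factor, was at 0.445, 0.425 and 1.696, *Tk1*, for thymidine kinase, at 10.4, 4.75 and 30.0, and *Uhrf1*, which copies DNA methylation, at 7.14, 7.37 and 20.7. Of the 43 DNA replication genes, 2 reached an FPKM of 1 through the reexpressed library alone, *Mcm10* among them. Of 51 replication-dependent histone genes compared of 67, 26 were higher and none was lower. Among the 51, 6 passed the FPKM minimum only through the reexpressed library. *Hist1h1b*, for a linker histone, was at 9.75, 7.11 and 65.2 FPKM, 6.69-fold (5.47–8.25) and 9.17-fold (7.50–11.3) higher. *Hist1h2bj* was at 10.5, 8.92 and 58.7, *Hist1h3c* at 2.40, 2.67 and 15.9, and *Hist1h3g* at 1.12, 1.09 and 7.53. Histone genes are near-identical copies and their single values are uncertain. Most lie on chromosome 13, where 14.02% of 542 genes were higher.

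**Figure D4:**
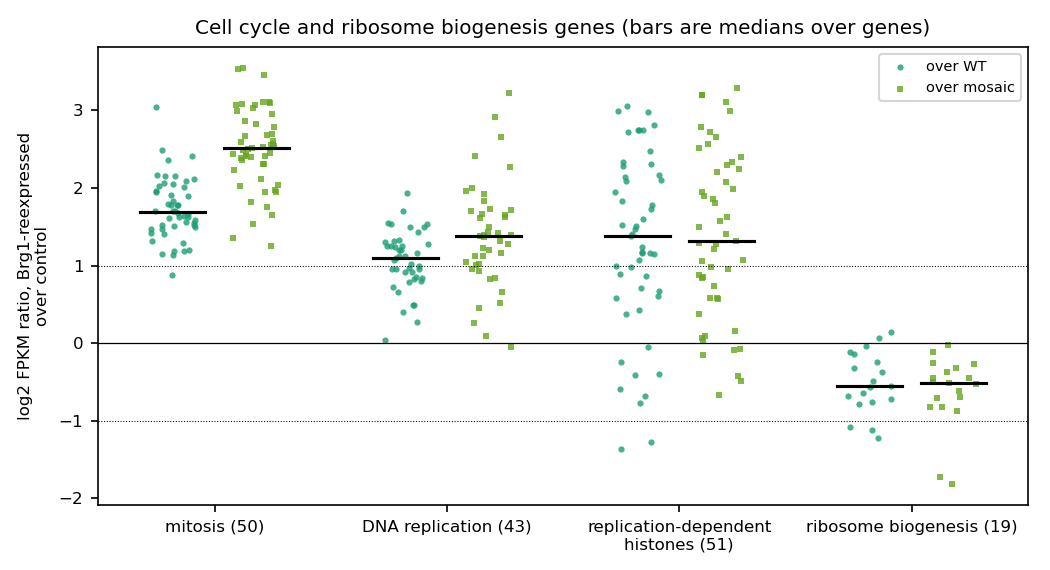
Log2 FPKM ratio of the *Brg1*-reexpressed library over WT (circles) and over mosaic (squares) for each compared gene of 4 lists, with black bars at the median over genes and dotted lines at 2-fold. Mitosis genes lie almost wholly above the upper line (medians 1.69 and 2.51), DNA replication genes around it (1.09 and 1.38), and ribosome biogenesis genes mostly below 0 (−0.55 and −0.52).

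Promoters of the mitosis genes shared letters that the rule did not use. RefSeq promoters on GRCm38.p6, from 250 bases before to 50 after a start, were found for 40 of the 49 higher mitosis genes. Of their 43 promoters, 67.4% held TTTGAA, the core of the cell cycle homology element, on either strand, against 17.9% of 32851 promoters in the table and 12.4% of 10089 promoters of compared genes, and 67.4% held CCAAT against 37.4% and 37.9%. TTTNNCGC, an E2F-like core, was in 40% of 20 promoters of the 17 higher DNA replication genes found and in 30% of 20 promoters of members that were not called, against 5.17% of all promoters and 8.72% of those of compared genes. TTCNNNGAA, a STAT-like core, was in 6.98% of mitosis and 10% of DNA replication promoters against 8.30%. Among all genes higher than both controls, TTTGAA was in 18.9% of promoters. A match describes letters in this window and not a bound site. The windows below are shown because they hold CCAAT repeats upstream of TTTGAA near the start, with both in capitals (ATTGG is CCAAT on the other strand). All 4 genes lie on the minus strand.
Kif18b, chr11:102925106-102925187, a mitotic kinesin (1.11, 0.767 and 4.52 FPKM): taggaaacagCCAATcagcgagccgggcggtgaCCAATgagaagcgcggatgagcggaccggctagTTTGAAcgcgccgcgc
Aurka, chr2:172370523-172370631, a spindle kinase: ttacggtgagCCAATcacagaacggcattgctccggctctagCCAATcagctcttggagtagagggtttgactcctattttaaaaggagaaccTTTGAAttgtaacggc
Ccnb2, chr9:70421535-70421674: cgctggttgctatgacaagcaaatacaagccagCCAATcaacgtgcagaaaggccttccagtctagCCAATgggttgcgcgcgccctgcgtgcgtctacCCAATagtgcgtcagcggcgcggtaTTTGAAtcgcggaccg
Cdk1, chr10:69352912-69353051, the mitotic cyclin-dependent kinase: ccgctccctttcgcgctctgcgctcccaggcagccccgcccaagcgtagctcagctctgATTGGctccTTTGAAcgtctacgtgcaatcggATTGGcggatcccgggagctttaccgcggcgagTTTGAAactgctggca

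Of 32 interferon response genes compared, 6 were lower than both controls and 1 was higher. The 6 are known from the antiviral response to type I interferon. Other genes of that response were not called, with *Oas1a* at 39.2, 15.2 and 13.7 FPKM, *Stat2* at 8.89, 8.01 and 5.49 and *Irf9* at 35.1, 25.3 and 21.1. *Ifit1*, which binds viral RNA, was at 34.5, 30.5 and 4.46 FPKM, 7.74-fold (6.64–9.06) and 6.83-fold (5.87–7.99) lower. *Rsad2*, for viperin, was at 3.59, 5.41 and 0.409, the ubiquitin-like modifier *Isg15* at 463, 337 and 106, and *Irf7*, which drives type I interferon genes, at 80.4, 45.2 and 13.1. *Ifit3* (6.19, 36.3 and 2.21) and *Mx1* (5.49, 4.11 and 1.60) completed the group. The *Brg1*-deleted libraries of the rKO1 mice were as low, with *Ifit1* at 6.34 and 4.68 FPKM and *Irf7* at 20.7 and 15.4, and the mosaic *Brg1*-deleted library was at 48.9 and 45.7.

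Of the 25 members not called against both controls, 4 were called against 1 control, and 11 of the 32 stood below both controls by any amount. The GTPases *Gbp2* (28.6, 23.2 and 36.2 FPKM) and *Igtp* (278, 157 and 281), the transcription factor *Irf1* (93.7, 70.7 and 119), and the immunoproteasome subunit *Psmb9* (218, 196 and 328) were within 2-fold of both controls. *Gbp3*, at 26.7, 30.1 and 60.6 FPKM, was 2.27-fold (2.13–2.42) and 2.01-fold (1.90–2.13) higher, just inside the criterion, and was not called when libraries were scaled by TMM or by total reads. Over the list the median log2 ratio was 0.015 over WT and 0.26 over mosaic. Genes lower than both controls also formed a run, chosen after its values were seen, of 5 adjacent genes on chromosome 19 (34550694–34650009), *Ifit2*, *Ifit3*, *Ifit1bl1*, *Ifit3b* and *Ifit1*, all at least 2-fold below both controls. *Ifit3b* was at 31.8, 17.6 and 1.20 FPKM, 26.4-fold (19.1–37.6) and 14.6-fold (10.5–20.8) lower.

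**Figure D5:**
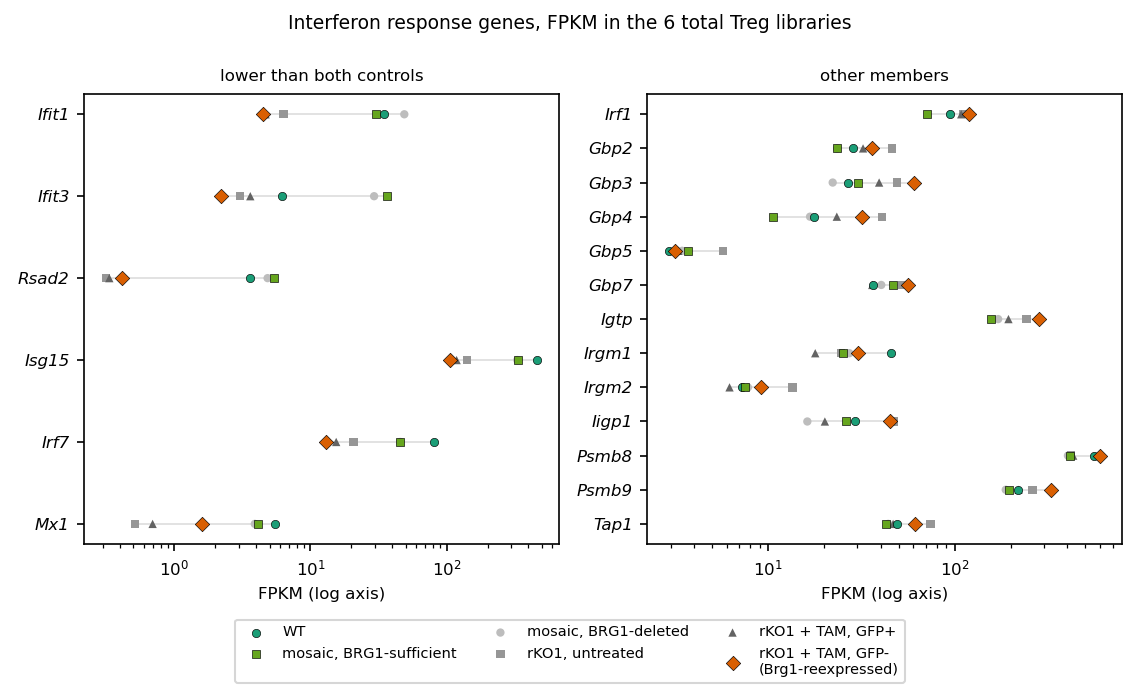
FPKM on a log axis in the 6 total Treg libraries for the 6 interferon genes lower than both controls (left) and for 13 other members (right). On the left the *Brg1*-reexpressed library (orange) and the rKO1 *Brg1*-deleted libraries (dark grey) lie below both controls (green), and on the right the libraries overlap.

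Promoters were found for 5 of the 6 lower interferon genes, and 4 of the 5 (80%) held the core of the interferon-stimulated response element, a pair of GAAA words with 2 bases between them, on either strand. It was in 45% of 20 promoters of the members that were not called, in 6.81% of those of all genes lower than both controls and in 3.44% of all promoters. It is also the core for other IRF proteins, and TTTGAA was in none of the 5. The 4 windows show the element in capitals, in Ifit1, Ifit3 and Rsad2 on the opposite strand, as a pair of TTTC words, and in Isg15 as 3 overlapping matches.
Ifit1, chr19:34640775-34640823, plus strand: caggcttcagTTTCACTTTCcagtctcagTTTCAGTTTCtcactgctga
Ifit3, chr19:34583363-34583426, plus strand: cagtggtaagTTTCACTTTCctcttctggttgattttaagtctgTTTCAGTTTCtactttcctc
Isg15, chr4:156200865-156200906, minus strand: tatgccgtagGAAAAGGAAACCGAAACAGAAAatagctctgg
Rsad2, chr12:26456553-26456582, minus strand: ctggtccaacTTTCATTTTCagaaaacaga

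Among 22 genes of the BCL2 family and cell death, 5 were higher and 1 was lower. The survival gene *Bcl2* was at 34.2, 29.3 and 4.18 FPKM, 8.18-fold (7.51–8.92) and 7.02-fold (6.46–7.65) lower, and the reexpressed library was the lowest of all 6. The higher genes included both kinds, with the death-promoting *Bik* (3.91, 3.77 and 16.5) and *Pmaip1* (4.88, 1.997 and 18.8), and the survival gene *Bcl2a1d* (94.2, 63.1 and 260), which has near-identical copies. *Mcl1* (129, 121 and 94.6) and *Bcl2l1* (11.5, 8.53 and 13.9), other survival genes, were within 2-fold.

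Growth and metabolism genes moved little by comparison. Of 19 ribosome biogenesis genes none was higher, 17 were below both controls by any amount, and 2 were at least 2-fold lower, *Myc*, the growth regulator, at 50.1, 75.7 and 21.4 FPKM and *Rrp12* at 1.84, 2.83 and 0.851. Of 18 glycolysis genes, *Tpi1* (78.2, 88.3 and 221) and the lactate exporter *Slc16a3* (0.830, 1.48 and 3.74) were higher and *Pdk1* was lower (7.64, 10.5 and 2.10). Of 71 nuclear respiratory chain genes 3 were higher, and 51 were highest in the reexpressed library with median log2 ratios of 0.19 and 0.47. The 13 mitochondrially encoded genes and 8 amino acid transporters had no member called. *Idi1* (2.46, 1.47 and 6.29), *Pmvk* (18.5, 19.3 and 47.0) and *Stard4* (4.66, 3.93 and 12.2) were the 3 higher of 26 cholesterol and fatty acid synthesis genes. Of 77 cytosolic ribosomal protein genes, 2 were higher and 2 lower, among them *Rps2* at 651, 554 and 152 FPKM, and families with near-identical pseudogenes make these uncertain. Among 23 BAF complex subunits *Bcl7a* was lower (0.722, 1.13 and 0.267) and none was higher.

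The controls stood far apart on immediate-early and heat shock genes, which respond within minutes to stimulation or to tissue handling. *Fos* was at 162 FPKM in WT, 7.52 in mosaic and 35.5 in reexpressed cells, *Jun* at 78.0, 5.86 and 9.49, and *Junb* at 1658, 174 and 426. Of 23 such genes, 14 were called against 1 control only or in opposite directions, 1 was higher than both (*Atf3*, 0.336, 0.178 and 1.4996 FPKM) and 1 lower (*Egr1*, 25.0, 61.3 and 8.84). *Atf3* passed the FPKM minimum only through the reexpressed library. Over all genes, 410 were higher and 481 lower than WT alone, 701 higher and 630 lower than mosaic alone, and 93 lay on opposite sides of the controls.

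Higher genes were shorter and lower genes nearer to the average, with a median merged exon length of 2174.5 bases for higher, 2927 for lower and 3257 for all compared genes, and 72.5% of higher, 71.1% of lower and 76.2% of all genes were protein-coding. Some called genes were neighbours. Beside the S100 and Ifit runs, *Ccl3*, *Ccl4*, *Wfdc17* and *Wfdc21* on chromosome 11 (83647844–83752642) and *Gzmf*, *Gzmc* and *Gzmb* on chromosome 14 (56205263–56262260) were runs of higher genes, and *Ifi206*, *Ifi214* and *Ifi213* on chromosome 1 (173468485–173599274) a run of lower ones. Runs were counted among adjacent compared protein-coding genes after the values were seen.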

How the data were processed

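RNA of sorted Treg cells was sequenced as 1 library per condition. cDNA was made with a SMART-Seq v4 kit and read from both ends. The authors deposited FPKM values per Ensembl gene, and the submitters' processing notes name HISAT2 2.0, StringTie 1.3.3b and featureCounts 1.5.0-p3 on mm10 (GRCm38). Reads were recovered by multiplying FPKM by the merged exon length in GENCODE M21. They were whole, within 0.02, in all 6 total Treg libraries for 93.32% of 26057 genes, and for 1687 more with a refitted length. The 3 libraries compared held 17345303 (WT), 22990504 (mosaic) and 19330435 (reexpressed) recovered reads.

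Ratios used FPKM as deposited. A library with 3 reads or fewer was set to the value of 3 reads, and a fold against 0 reads is a lower bound. A gene was called at 2-fold or more from both controls. The study's threshold on adjusted p needs replicates and was not applied. Calls were tested on simulated data. Tools were Python 3.11.15, NumPy 2.4.6, pandas 2.3.3, SciPy 1.17.1 and matplotlib 3.10.9. Libraries of activated Treg cells were not used here.

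The libraries and gene lists were chosen with earlier results of these data known. Genes named were the 12 highest and 12 lowest protein-coding genes by the smaller change, with an FPKM of 10 or more, up to 4 per list and direction, *Smarca4*, *Foxp3*, *Xist* and Y-linked genes, and members of the receptor and granule lists called against 1 control. Other genes were named after their values were seen. Some genes of the lists count in the totals but are not reported here by name.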

Additional observations from a re-analysis of the deposited data

Results flagged for a closer look

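Genes of chromosomes X and Y stood outside the comparison. *Cxcr3* and 4 Y-linked genes are given here because the *Brg1*-reexpressed library was above both controls. *Cxcr3*, an X-linked receptor for interferon-induced chemokines on Th1-like cells, was at 323 FPKM in the reexpressed library, 33.8 in WT and 44.7 in mosaic cells, and at 2.40, 95.5 and 63.5 in the mosaic *Brg1*-deleted, untreated rKO1 and GFP+ libraries. The Y-linked genes were at 0 in both controls and at 5.59 (*Ddx3y*), 11.2 (*Eif2s3y*), 0.547 (*Kdm5d*) and 0.576 FPKM (*Uty*) in the reexpressed library. In the GFP+ library of the treated rKO1 mice they were at 7.31, 16.5, 0.819 and 0.607. Of 392 X-linked genes with an FPKM of 1 or more, 31, *Cxcr3* among them, were at least 2-fold higher and 20 at least 2-fold lower than both controls.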

How the results depend on the processing

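No paired analysis was possible because each condition has 1 library and the labels give no replicate numbers, and no replicate could be left out. The counts of higher genes, lower genes and genes that differ between the controls were 490, 300 and 785 with an FPKM of 5 or more, 1474, 1213 and 3614 with no filter, 625, 336 and 1066 with a pseudocount of 1 FPKM, and 212, 201 and 416 at 4-fold. With protein-coding genes only, the controls differed at 998 genes. Under the other alternatives (TMM, total reads, median of ratios, an FPKM of 0.5, a pseudocount of 0.1 FPKM, X and Y genes included and, added after the data were seen, 20 reads or more), each count stayed within 1.5 times. Scaling by total reads lowered the median log2 ratio to −0.12 over both controls and gave 819 higher and 823 lower genes, a share of 49.9% higher in place of 57.8%. Of the 948 higher and 693 lower genes, 912 and 674 were also called with TMM, 819 and 693 with total reads and 946 and 675 with the median of ratios. The depth limits low genes, since 125 higher and 104 lower genes had a library at the floor of 3 reads.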
